A study of Mus musculus with 4 samples.

Results

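Klf15 codes for KLF15, a Kruppel-like transcription factor with zinc fingers. It was followed here through every array of a mouse gastrocnemius series, by the gene symbol in the array annotation. It was read by 1 transcript cluster (a set of probes for one transcript) of 41345, and it is 1 of 22180 genes with a symbol of their own. The 4 groups held 1 array each: skeletal muscle-specific KLF15 knockout (KO) mice given streptozotocin (STZ), wild-type (WT) mice given STZ, KO mice given vehicle and WT mice given vehicle. STZ destroys the insulin-producing beta cells and makes mice diabetic. Per the labels' protocols, mice received intraperitoneal STZ (50 mg/kg daily for 5 days) or citrate buffer as vehicle, and the muscle was taken 3 weeks afterwards. The Cre driver, the deleted exons, the age and sex of the mice, and whether an array held 1 animal or a pool are details that the labels leave out.

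Kruppel-like factors bind GC-rich and CACCC sequences through C-terminal zinc fingers. KLF15 is abundant in liver, kidney, fat and striated muscle, is induced by fasting and by glucocorticoids, and cycles with the circadian clock in mouse heart and liver. In mouse muscle it is known for switching on branched-chain amino acid breakdown and fatty acid use. Its protein is itself removed by ubiquitination. The arrays measured RNA only, so KLF15 protein is not described.

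A promoter window is shown first because clock factors and glucocorticoids, whose gene lists follow, are known regulators of Klf15. The RefSeq gene table has Klf15 begin at 90461043, upstream of this window, and the bases outside the window were not searched. The RefSeq window holds 250 bases before the start site and 50 after it (GRCm38.p6, chr6:90462326-90462625, plus strand), and capitals mark the E-box CACGTG, the CACCC box CCACCC and the GC box GGGCGG on either strand.
Klf15: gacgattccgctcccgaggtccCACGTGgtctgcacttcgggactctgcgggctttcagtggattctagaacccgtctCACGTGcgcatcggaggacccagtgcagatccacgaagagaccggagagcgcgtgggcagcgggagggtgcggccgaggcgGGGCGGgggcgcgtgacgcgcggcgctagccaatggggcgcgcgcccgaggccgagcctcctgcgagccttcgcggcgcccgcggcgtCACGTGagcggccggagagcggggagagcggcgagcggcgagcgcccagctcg
The E-box, the letters bound by the clock pair BMAL1 and CLOCK, occurred 3 times, with first bases at -228, -172 and -3 from the start site. Of 32544 RefSeq promoter windows of this length, 7.17% held at least 1 E-box and 0.0891% (29 windows) held 3 or more. The window held 1 GC box at -91, which 35.9% of windows also had, and no CACCC box, against 31.6% of windows. Neither the glucocorticoid half-site TGTTCT (18.9% of windows), the full palindromic glucocorticoid element (0.0092%), the FOXO motif TGTTTAC (3.66%) nor the D-box TTANGTAA (2.29%) was found. A match describes letters in this window only and does not show binding.

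The intensity of Klf15 was 16.04 on the KO STZ array, 72.1 on the WT STZ array, 19.8 on the KO vehicle array and 50.5 on the WT vehicle array. The order was thus WT STZ, WT vehicle, KO vehicle, KO STZ, and with 1 array per group it cannot be said which neighbours in it differ beyond the spread between animals. Both KO arrays lay below both WT arrays. Klf15 was 4.50-fold lower in KO than in WT under STZ and 2.55-fold lower under vehicle, on the deposited intensities. Per the annotation the cluster belongs to Klf15 alone, but no label says whether its probes fall within the deleted stretch, so the residual signal does not measure how complete the deletion was.

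**Figure D1:**
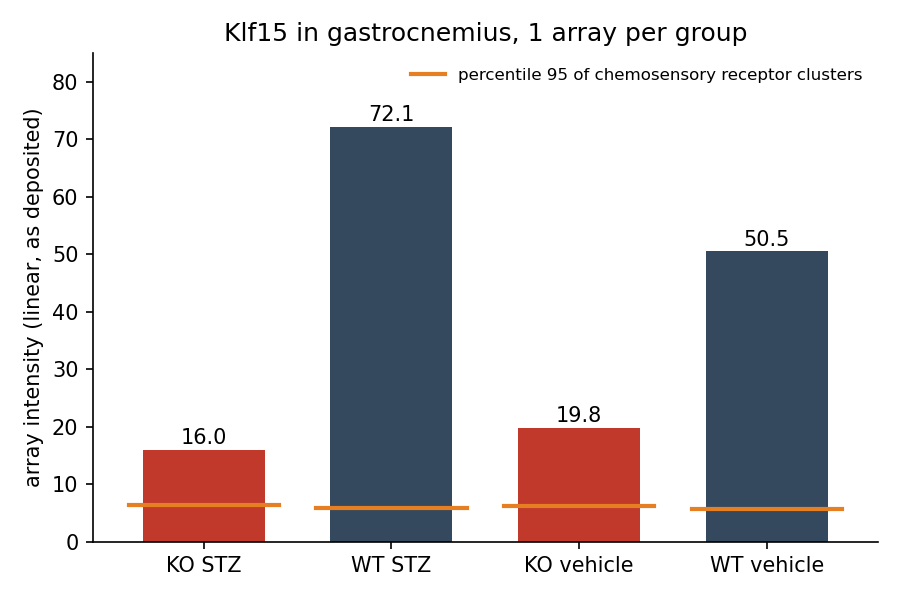
Intensity of Klf15 (y axis, linear, as deposited) on each of the 4 arrays, with KO in red and WT in dark blue. Orange lines mark percentile 95 of 1405 chemosensory receptor clusters on the same array, and both KO bars stand above them, at 16.04 and 19.8, against 72.1 and 50.5 for the WT bars.

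The KO signal was set beside chemosensory receptor genes, which sense odours and pheromones and which muscle is not known to use, as a stand-in for probe background. Their percentile 95 was 6.49 on the KO STZ array, 5.91 on the WT STZ array, 6.25 on the KO vehicle array and 5.78 on the WT vehicle array. Klf15 was matched or exceeded by 14 of these 1405 clusters on the KO STZ array, 1 on the WT STZ array, 7 on the KO vehicle array and 1 on the WT vehicle array. Probes differ in affinity, so this describes the arrays and is not a detection call. After percentile 95 of these clusters was subtracted on each array, KO stood at 14.4% of WT under STZ and at 30.4% under vehicle. After their median was subtracted the shares were 18.5% and 35.1%.

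Muscle also holds cells in which a muscle-specific deletion would leave Klf15 in place, and fewer cells of a type cannot be told apart from less RNA per cell in these samples. Sums of marker intensities for such cells are therefore given beside the Klf15 values. The summed intensity of 10 endothelial markers was 841 in KO STZ against 781 in WT STZ, and 928 in KO vehicle against 766 in WT vehicle. Cdh5, the brightest of them, had 364.8 in KO STZ against 288.4 in WT STZ. On the log2 scale the list's median KO minus WT was 0.040 under STZ, with 6 genes above 0 and 4 below. Under vehicle it was 0.25, with all 10 above 0. Over all genes the medians were -0.048 under STZ and -0.0039 under vehicle, and the share above 0 was not counted. For 9 fibroblast markers the sums were 2548 in KO STZ against 2838 in WT STZ, and 2492 in KO vehicle against 2484 in WT vehicle. Most of these sums is Dcn, with 1670 in KO STZ against 1972 in WT STZ, and 1694 in KO vehicle against 1746 in WT vehicle. The list's median KO minus WT was 0.039 under STZ and 0.17 under vehicle on the log2 scale. For 9 adipocyte markers the sums were 6199 in KO STZ against 6657 in WT STZ, and 6275 in KO vehicle against 6224 in WT vehicle. Most of that sum is Car3, which muscle fibres also express. Without it, a choice made after its values were seen, the other 8 summed to 965 in KO STZ against 1447 in WT STZ, and to 1200 in KO vehicle against 1177 in WT vehicle. That sum was lower in KO under STZ and near WT under vehicle, but most of it is Fabp4. Fabp4 had 763.2 in KO STZ against 1194 in WT STZ, and 912.0 in KO vehicle against 933.6 in WT vehicle. For 10 macrophage markers the sums were 448 in KO STZ against 417 in WT STZ, and 375 in KO vehicle against 344 in WT vehicle. The part of these cells in the KO signal was not tested.

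The tissue label was met by the fast-fibre markers, whose 10 genes summed to 55902 in KO STZ against 56413 in WT STZ, and 55952 in KO vehicle against 57918 in WT vehicle. The 8 slow-fibre markers had lower sums in KO. They summed to 1068 in KO STZ against 1667 in WT STZ, and to 1318 in KO vehicle against 1610 in WT vehicle. The part of fibre composition in the Klf15 values was not tested.

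Differences below are on the log2(intensity + 3.69) scale, where 1.5-fold is 0.58 and 2-fold is 1, and rankings run over the 13258 genes above the level filter. For Klf15, KO minus WT was -1.94 under STZ, rank 3 from the lowest. A 2-fold lower value or less was seen for 38 genes here, or 0.287% of those ranked. KO minus WT was -1.20 under vehicle, rank 6 from the lowest, where 10 genes or 0.0754% were at least 2-fold lower. The deleted gene was thus near the low end but not the lowest in either comparison.

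Around Klf15 in the STZ ranking, Adhfe1, a mitochondrial hydroxyacid dehydrogenase, stood lowest at -2.93. Egr1, an immediate early transcription factor, followed at -2.15, and next after Klf15 came Snord58b, a small nucleolar RNA, at -1.76, Apold1, an endothelial early response gene, at -1.75, and Aldh6a1, the methylmalonate-semialdehyde dehydrogenase of valine breakdown, at -1.74. In the vehicle ranking the genes just before Klf15 were Aldh6a1 at -1.49, Gstk1, a glutathione transferase of mitochondria and peroxisomes, at -1.38 and Ormdl2, a regulator of sphingolipid synthesis, at -1.30. Just after it were Ostn (-1.12), the gene of the muscle hormone musclin, Pxmp2 (-1.05), a channel protein of peroxisomes, and Wnt4 (-1.04), a Wnt ligand. Of these 10 genes, Adhfe1, Aldh6a1 and Gstk1 were at least 2-fold lower than WT under both treatments, as was Klf15.

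**Figure D2:**
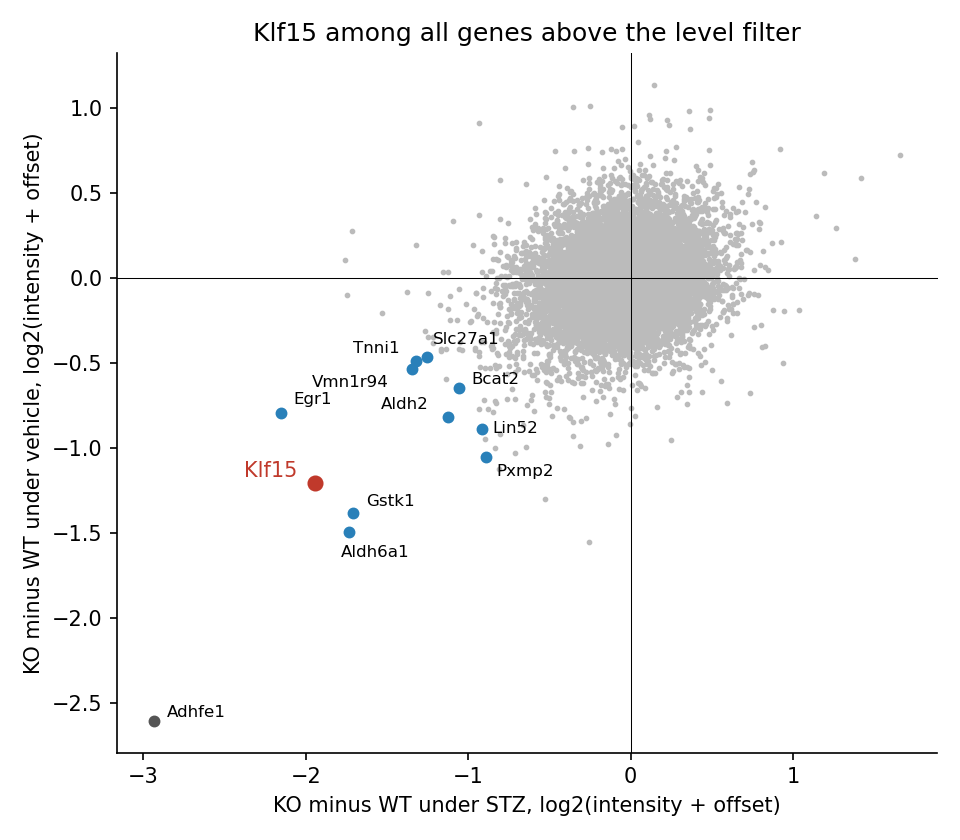
Each grey point is 1 of 13258 genes, with KO minus WT under STZ on the x axis and under vehicle on the y axis, both on the log2(intensity + offset) scale. Klf15 (red) lies at -1.94 and -1.20, the genes with the most similar profile are blue, and Adhfe1 (dark grey) lies lowest at -2.93 and -2.60.

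STZ against vehicle gave the gene a different sign in KO and in WT. In WT, Klf15 stood at 0.48 with STZ, and at 1.43-fold higher on the deposited intensities without the offset. It missed 1.5-fold on both scales. That put it at rank 349 from the highest, and 2.63% of genes were at least as high. At least 1.5-fold higher were 169 genes, or 1.27%. In KO, Klf15 stood at -0.25 with STZ, and 21.4% of genes differed by at least this much in either direction. Subtracting the WT effect of STZ from the KO effect gave -0.74, and 1.58% of genes stood at or below this value, while 3.91% were at least 1.5-fold lower. This last value uses all 4 arrays and shares them with the other comparisons.

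The genes whose profiles came closest to that of Klf15 were found by the Euclidean distance between log2 profiles over the 4 arrays, each centred on the gene's own mean. Because the ranking used all 4 arrays, the values of these genes are a description. A flat profile would lie at a distance of 1.62 from Klf15, and the 10 closest genes lay between 0.25 and 0.76. Being nearer than a flat profile is common, since 7038 of the 13258 genes were.

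Gstk1 came first, with 58.3 in KO STZ against 198.7 in WT STZ, and 67.4 in KO vehicle against 181.0 in WT vehicle. Aldh6a1 came second at a distance of 0.31, with 111.8 in KO STZ against 380.9 in WT STZ, and 128.6 in KO vehicle against 368.4 in WT vehicle. Egr1 followed at 0.36, with 10.1 in KO STZ against 57.7 in WT STZ, and 14.7 in KO vehicle against 28.1 in WT vehicle. Gstk1 and Aldh6a1 were near Klf15 in both KO minus WT differences but differed less with STZ in WT, at 0.13 and 0.047, whereas Egr1 differed more, at 0.95. A dimmer cluster of Aldh6a1 read -1.62 for KO minus WT under STZ and -1.11 under vehicle.

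Aldh2, the mitochondrial aldehyde dehydrogenase that clears acetaldehyde, followed at a distance of 0.64, with KO minus WT at -1.13 under STZ and -0.82 under vehicle. Its dimmer cluster read -0.60 and -0.48. Bcat2, the mitochondrial branched-chain aminotransferase and a known target of KLF15 in mouse muscle, had 32.4 in KO STZ against 71.4 in WT STZ, and 32.8 in KO vehicle against 53.4 in WT vehicle. Its STZ difference in WT, 0.40, was near that of Klf15. Slc27a1, a fatty acid transport protein, stood at -1.26 and -0.46, and Tnni1, the slow troponin I, at -1.32 and -0.49 for KO minus WT under STZ and under vehicle. The others were Pxmp2, Lin52, a subunit of the DREAM complex that controls cell cycle genes, and Vmn1r94, a vomeronasal receptor gene read at 6.83 in KO STZ against 23.1 in WT STZ, and 10.1 in KO vehicle against 16.3 in WT vehicle. Vmn1r94 also belongs to the chemosensory set used above as a stand-in for background. On the WT STZ array it lay above percentile 99 of that set, 12.98.

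Of the 10 closest genes, 7 lay 1.5-fold or more below WT under both treatments, all 10 were above 0 with STZ in WT, and 8 were below 0 with STZ in KO. Of all ranked genes 2.81% passed 1.5-fold downward in KO under STZ and 0.777% under vehicle, but nothing is read from this, since the profile chose the genes. The 5 genes closest to the sign-turned profile were Mir188, a microRNA gene, Snord88c, a small nucleolar RNA, Col1a1, a chain of type I collagen, 1700011M02Rik and Gm5781. Mir188 had 33.0 in KO STZ against 10.02 in WT STZ, and 29.5 in KO vehicle against 18.4 in WT vehicle. Col1a1 had 755.8 in KO STZ against 398.7 in WT STZ, and 721.3 in KO vehicle against 424.5 in WT vehicle.

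**Figure D3:**
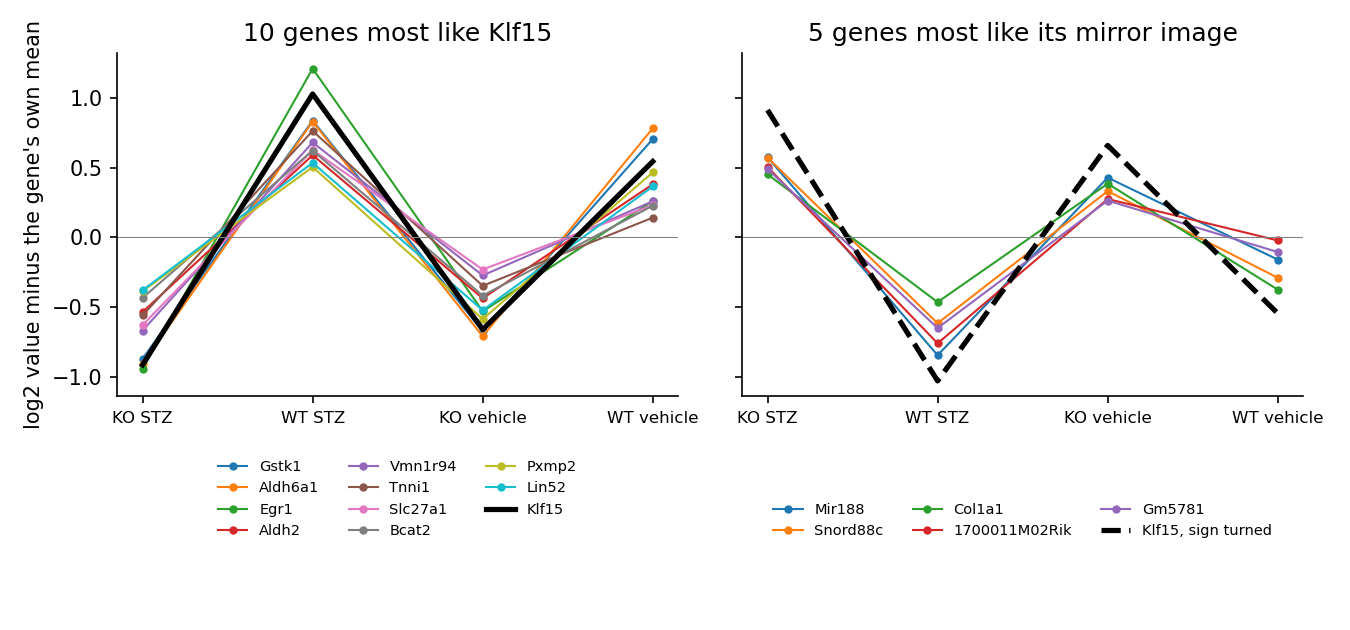
The log2 value of each gene minus its own mean (y axis) on the 4 arrays (x axis), for the 10 genes most like Klf15 (left) and the 5 most like its mirror image (right). The thick black line is Klf15, dashed where its sign is turned, and lines join values of one gene. Gstk1, at a distance of 0.25, runs closest to it.

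RefSeq promoter windows were given for 7 of these 10 genes. Egr1, Aldh2 and Pxmp2 had no entry. Those of Gstk1 and Aldh6a1, the 2 closest genes, are shown because Kruppel-like factors bind the marked boxes, and that of Lin52, the farthest of the 10, because it overlaps the Aldh6a1 window. Capitals mark the same 3 motifs as above. Gstk1 lies at chr6:42245685-42245984 on the plus strand, Aldh6a1 at chr12:84450975-84451274 on the minus strand and Lin52 at chr12:84451258-84451557 on the plus strand, all GRCm38.p6.
Gstk1: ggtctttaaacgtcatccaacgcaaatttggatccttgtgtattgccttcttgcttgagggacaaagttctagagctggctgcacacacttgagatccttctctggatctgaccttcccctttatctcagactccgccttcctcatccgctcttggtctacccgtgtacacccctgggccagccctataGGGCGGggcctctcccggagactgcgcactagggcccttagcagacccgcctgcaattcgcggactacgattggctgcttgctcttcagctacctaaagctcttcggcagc
Aldh6a1: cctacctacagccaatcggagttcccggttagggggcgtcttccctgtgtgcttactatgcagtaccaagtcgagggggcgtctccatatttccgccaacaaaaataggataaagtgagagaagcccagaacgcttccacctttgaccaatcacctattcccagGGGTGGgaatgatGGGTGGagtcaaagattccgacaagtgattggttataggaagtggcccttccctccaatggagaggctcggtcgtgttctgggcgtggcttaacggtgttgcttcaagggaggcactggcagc
Lin52: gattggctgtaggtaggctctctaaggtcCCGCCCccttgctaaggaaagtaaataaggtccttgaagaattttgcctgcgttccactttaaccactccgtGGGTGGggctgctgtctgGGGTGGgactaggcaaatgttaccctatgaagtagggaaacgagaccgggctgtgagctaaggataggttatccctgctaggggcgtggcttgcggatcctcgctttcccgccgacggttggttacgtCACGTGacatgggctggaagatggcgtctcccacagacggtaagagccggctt
Gstk1 held 1 GC box, this Aldh6a1 window held 2 CACCC boxes, a number reached by 8.52% of all windows, and Lin52 held 2 CACCC boxes, 1 GC box and 1 E-box. A second Aldh6a1 window, at chr12:84448268-84448567, held none of the 3 motifs. Aldh6a1 and Lin52 face away from each other on chromosome 12, with start sites 484 bases apart and windows that share 17 bases. In any of their windows, 5 of the 7 genes had a CACCC box, against 34.2% of 26742 genes scored the same way, and 3 had a GC box, against 38.5%.

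Genes beside Klf15 on the chromosome were examined because a targeted allele carries its flanking DNA. The order was taken from the RefSeq gene table, with 5 protein-coding genes on each side. Of the 10 neighbours, 7 passed the level filter, and 0 of the 7 were 1.5-fold higher or lower in KO than in WT under either treatment. Over all genes 0.845% were higher and 2.81% lower by that much under STZ, and 0.581% were higher and 0.777% lower under vehicle, so a count of 0 among 7 is near the background. KO minus WT among them ran from -0.12 to 0.55 under STZ and from -0.26 to 0.16 under vehicle. The highest was Aldh1l1, the adjacent gene on one side and a folate enzyme, with 20.1 in KO STZ against 12.6 in WT STZ, and 17.8 in KO vehicle against 16.8 in WT vehicle. The adjacent gene on the other side, Cfap100, a cilia protein gene, was dim, with 3.81 in KO STZ against 4.04 in WT STZ, and 4.77 in KO vehicle against 4.72 in WT vehicle. Zxdc, a zinc-finger gene, stood at -0.12 under STZ and 0.0018 under vehicle. Slc41a3, a magnesium transporter gene, stood at 0.22 and 0.0048.

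**Figure D4:**
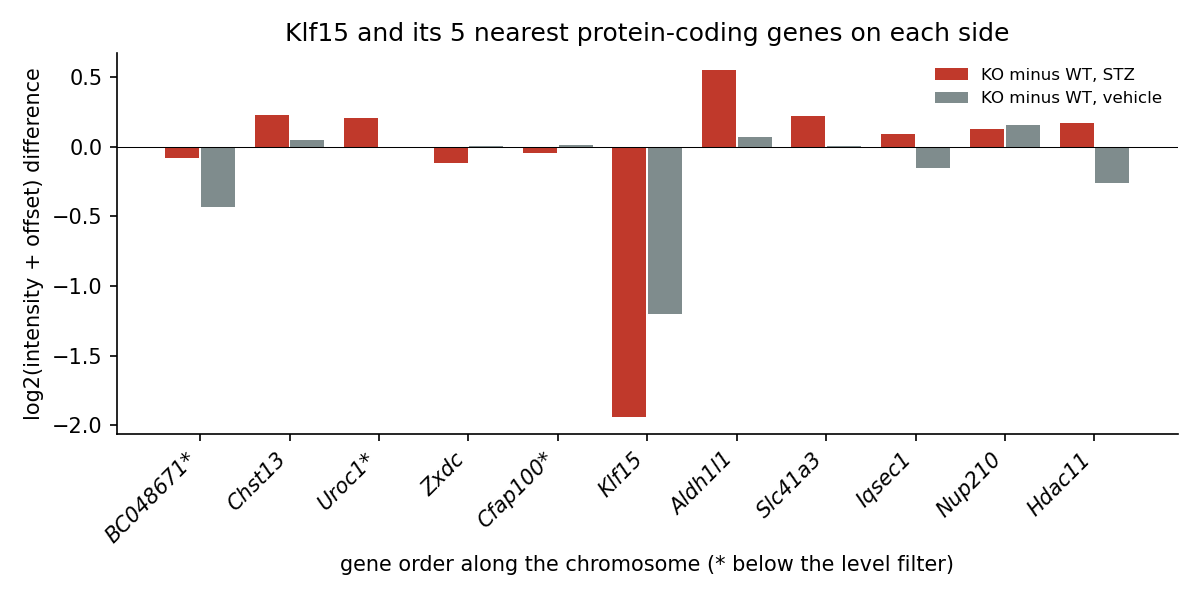
KO minus WT (y axis, log2(intensity + offset) difference) under STZ (red) and under vehicle (grey) for Klf15 and the 5 nearest protein-coding genes on each side, in chromosome order. Klf15 reaches -1.94 and -1.20, while the 7 neighbours above the level filter lie between -0.26 and 0.55.

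Upstream of Klf15, the glucocorticoid receptor gene Nr3c1 had 135.7 in KO STZ against 148.2 in WT STZ, and 137.1 in KO vehicle against 147.9 in WT vehicle, so STZ differed from vehicle by 0.0023 in WT. Of 20 genes of the glucocorticoid response, 4 were at least 1.5-fold higher with STZ in WT and 0 lower, where 1.27% of all genes were higher and 0.445% lower. The list median was 0.25 in WT, against 0.0075 over all genes, and 0.07 in KO, against -0.032 over all genes. The 4 were Mt2, a metallothionein, at 0.76, Errfi1, a feedback inhibitor of EGF receptor signalling, at 0.73, Cebpd, a C/EBP transcription factor, at 0.69 and Cdkn1a, the cell cycle inhibitor p21, at 0.66. In KO these stood at 0.38, 0.21, 0.14 and 0.36, in the same order, and 0 of the 20 genes were 1.5-fold higher or lower with STZ in KO, where 0.445% of all genes were higher and 0.656% lower. Klf15 itself, at 0.48 in WT and -0.25 in KO, is not in the list. With STZ in WT, 15 of the 20 were above 0 and 5 below, and the share of all genes on each side was not counted. The 5 were Zbtb16 at -0.16, Lcn2 at -0.13, Mertk at -0.063, Sgk1 at -0.043 and Tsc22d3 at -0.016. Fkbp5 stood at 0.17.

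The clock list was nearer to the median of all genes. Of 15 clock genes above the level filter, 0 were 1.5-fold higher or lower with STZ in WT, which is near the background of 1.27% higher and 0.445% lower, and the list median was 0.037. Cry1, a repressor of the clock, had the largest difference at -0.52, with 22.2 in WT STZ against 33.4 in WT vehicle. Dbp, a clock output factor, stood at -0.28, Bhlhe40, another clock repressor, at 0.28 and Per1, a period gene, at 0.24. Between genotypes Cry1 was at -0.66 under vehicle and at 0.04 under STZ. Under vehicle it was the 1 clock gene past 1.5-fold, where 0.777% of all genes were lower. The labels give no time of day for collection.

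Of 17 measured partners and turnover factors of KLF15, 0 were 1.5-fold higher or lower in any of the 4 pairwise comparisons. Over all genes, 0.445% to 2.81% passed in each comparison and direction, so a count of 0 among 17 is near the background. Wwp1, a ubiquitin ligase reported to mark KLF15 for breakdown in mouse muscle, had 1182 in KO STZ against 1339 in WT STZ, and 1263 in KO vehicle against 1378 in WT vehicle, and STZ differed from vehicle by -0.041 in WT. Srebf1, a lipogenic factor that KLF15 is linked to in mouse liver, had the largest mean KO difference by size, with -0.50 under STZ and -0.06 under vehicle. Mef2a and Mef2d, muscle transcription factors, stood at -0.28 and 0.17 under STZ, and Hdac1, a histone deacetylase, at 0.23. Among the other Kruppel-like factors, 3 of 14 were at least 1.5-fold lower in KO under STZ, against 2.81% of all genes, and 0 under vehicle, against 0.777%. They were Klf10 at -1.22, Klf4 at -0.96 and Klf6 at -0.86, and Klf2 stood at -0.57. With STZ in WT, Klf10, Klf4, Klf6 and Klf2 stood at 0.78, 0.61, 0.32 and 0.55. In KO they stood at -0.057, 0.075, -0.15 and 0.081 with STZ, in the same order. Of the 14, 2 were at least 1.5-fold higher with STZ in WT, against 1.27% of all genes.

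Downstream, 16 of 21 measured enzymes of amino acid breakdown and gluconeogenesis had values below WT under STZ and 16 under vehicle. The share of all genes below WT was not counted, and their medians were also below 0, so nothing is read from these 2 counts. Under STZ 7 of the 21 enzymes were at least 1.5-fold lower and 0 higher, where 2.81% of all genes were lower and 0.845% higher. The median was -0.33 against -0.048 over all genes, and it was -0.19 under quantile normalization. Under vehicle 7 were lower and 1 higher (Pck1, the gluconeogenic PEP carboxykinase, at 1.14, named after its value was seen), with a median of -0.41 against -0.0039. Of all genes 0.777% were lower and 0.581% higher under vehicle. By the mean of both KO differences, those after Aldh6a1 were Bckdhb, which codes for the E1 beta chain of the enzyme that commits branched-chain keto acids to breakdown, at -0.84 under STZ and -0.998 under vehicle, Ivd, of leucine breakdown, at -0.81 and -0.91, and Mmut, the methylmalonyl-CoA mutase, at -0.94 and -0.77. Bcat2 stood at -1.06 under STZ and -0.64 under vehicle. With STZ in WT, where Klf15 was at 0.48, 0 of the 21 were 1.5-fold higher or lower. That count is near the background of 1.27% higher and 0.445% lower. The list median was 0.0015, against 0.0075 over all genes.

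The next list held genes of fatty acid uptake, storage and oxidation. Of 18 measured, 7 lay 1.5-fold or more below WT under STZ and 0 higher, where 2.81% of all genes were lower and 0.845% higher. The median was -0.53, against -0.048 over all genes, and it was -0.35 under quantile normalization. Under vehicle 0 passed 1.5-fold either way, where 0.777% of all genes were lower and 0.581% higher, and the median was -0.048, against -0.0039 over all genes. Acot2, which splits acyl-CoA in mitochondria and has near-identical paralogs whose RNA its probes may also read, had 211.9 in KO STZ against 556.4 in WT STZ, and 309.5 in KO vehicle against 327.5 in WT vehicle. Acadl, the long-chain acyl-CoA dehydrogenase, stood at -0.84 under STZ and -0.059 under vehicle. Plin5, a lipid droplet protein, stood at -0.83 and -0.53, and Lpl, the lipoprotein lipase, at -0.71 and -0.33. With STZ in WT, 3 of the 18 were at least 1.5-fold higher, against 1.27% of all genes, and the median was 0.22, against 0.0075 over all genes. For the KO effect of STZ less the WT effect, 6 of 18 were at least 1.5-fold lower, against 3.91% of all genes, and 0 were higher, against 1.76%. The 8 adipocyte markers above the level filter, of which Fabp4 is also in the lipid list, had medians of -0.42 under STZ and 0.12 under vehicle for KO minus WT, and their part in the lipid list was not tested.

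Of 4 genes of glucose use, Pdk4, the kinase that switches off pyruvate oxidation, stood at -0.65 in KO under STZ and 0.11 under vehicle. Slc2a4, the insulin-responsive glucose transporter GLUT4, stood at -0.14 and -0.064. Hk2, hexokinase 2, stood at 0.12 and 0.23, and Acss2, an acetyl-CoA synthetase, at 0.11 and -0.038. Of 7 atrophy genes, 1 lay 1.5-fold or more below WT under STZ, Fbxo32 (atrogin-1) at -0.70, where 2.81% of all genes were lower. Under vehicle 0 passed, which is near the background of 0.777% lower and 0.581% higher. Trim63 (MuRF1) stood at -0.21 under STZ and 0.38 under vehicle, and Mstn, the muscle growth inhibitor myostatin, at -0.39 and -0.13. Foxo1, a transcription factor that drives atrophy genes, stood at 0.56 and 0.42, within 1.5-fold, and Foxo3 stood at 0.29 and 0.38. Foxo1 alone of the 7 was read by 2 clusters, and its values here are those of the brighter one. With the mean of all clusters instead, the list's median under vehicle was 0.037, against 0.35.

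A cardiac and matrix list held genes that KLF15 holds down in mouse heart, such as Ccn2, together with collagens. Of 8 measured, 3 were at least 1.5-fold higher in KO under STZ, against 0.845% of all genes, and 4 under vehicle, against 0.581%. Under STZ and under vehicle 0 were lower, which is near the background of 2.81% and 0.777%. The 3 under STZ were all collagens. Col1a1 stood at 0.92 under STZ and 0.76 under vehicle, Col3a1 at 0.76 and 0.64, and Col1a2 at 0.75 and 0.68. Ccn2, a matricellular growth factor, stood at 0.05 under STZ and 0.5852 under vehicle, just past the 1.5-fold line at 0.58496. Tendon markers had medians of 0.18 under STZ and 0.37 under vehicle, and their part in the collagen values was not tested.

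**Figure D5:**
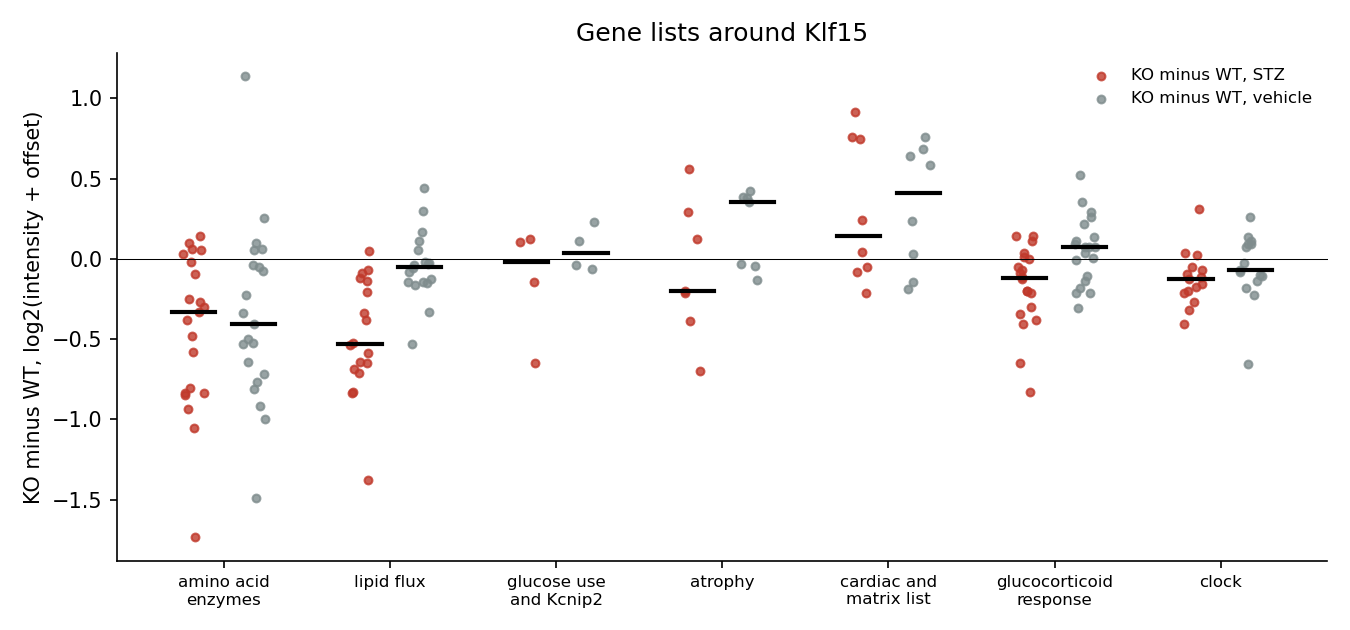
KO minus WT (y axis, log2(intensity + offset) difference) under STZ (red) and under vehicle (grey), with 1 point per gene and a black bar at each list's median, for 7 lists along the x axis. The lipid list has its median at -0.53 under STZ and -0.048 under vehicle, and the amino acid enzymes at -0.33 and -0.41.

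With 1 array per group no difference has a replicate check and no test was possible. The number of arrays limits the precision.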

How the data were processed

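For each array the authors deposited linear intensities, with 1 value for every transcript cluster, from biotin-labelled cRNA made from 4 ug of total RNA, per the labels' protocols. No label names the background correction, summary method or scaling. The annotation gave 1 symbol to 23521 of 41345 clusters and several to 1814, and left 16010 unlisted. Of those with 1 symbol, 23328 matched a RefSeq gene (GRCm38.p6) by Entrez number. Intensities were turned into log2(intensity + 3.69), the offset being percentile 25 of all values, and this understates differences of dim genes. The array medians lay within 0.035 on this scale, so nothing was rescaled. The brightest cluster stood for a gene, and 13258 of 22180 genes with a mean above the median cluster (intensity 5.81) were kept. Differences were called at 1.5-fold or 2-fold with no test.

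The lists held 226 genes, of which 214 had a cluster and 200 were kept. Klf15, the lists and the rules were chosen with earlier results of these data known. Named genes are the 10 closest and 5 mirrored profiles, the 3 next to Klf15 on each side of each KO ranking, 5 chromosome neighbours each side and up to 4 members per list. Those members had the largest mean KO difference by size or, for the glucocorticoid and clock lists, the largest STZ difference in WT. Bcat2, Slc2a4, Wwp1, Nr3c1, Fbxo32 and Trim63 were added to them. Alternatives were other offsets (1 and 16), quantile, median and loess scaling, other level filters, the mean of all clusters, Pearson correlation for the profiles, and a subtracted background. The counting and profile steps were tested on simulated data. Python 3.11.15, pandas 2.3.3, scipy 1.17.1 and statsmodels 0.14.6 were used.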

Additional observations from a re-analysis of the deposited data

Results flagged for a closer look

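Klf15 and 7 of the genes with its profile or the mirrored one differed from vehicle in opposite directions in the 2 genotypes, by at least 0.2 on the log2 scale each way. The profile of Klf15 over the same arrays chose these 7 genes, so nothing is read from their shared or mirrored signs. The share of all ranked genes that meet this rule was not counted. With 1 array per group the difference between STZ effects was not tested. For Klf15 the KO effect of STZ less the WT effect was -0.74. On the same measure Egr1 stood at -1.36, Tnni1 at -0.83, Vmn1r94 at -0.82 and Slc27a1 at -0.79. Of the mirrored genes, 1700011M02Rik stood at 0.97, Gm5781 at 0.77 and Snord88c at 0.57.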

How the results depend on the processing

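No paired analysis was possible because each group held 1 array. The 5 Klf15 differences kept their sign under 5 alternatives each (2 offsets and 3 scalings). Averaging clusters could not change them, since Klf15 has 1. KO minus WT ran from -2.10 to -1.46 under STZ and from -1.31 to -0.89 under vehicle. STZ minus vehicle ran from 0.41 to 0.50 in WT and from -0.29 to -0.16 in KO. The difference between STZ effects ran from -0.79 to -0.57 and left the 1.5-fold call with an offset of 16, at -0.57. Klf15 ranked from 3 to 5 under STZ and from 6 to 8 under vehicle over 8 alternatives. KO as a percent of WT ran from 14.4 to 23.5 under STZ and from 30.4 to 39.4 under vehicle over 3. Of the 10 closest genes, at least 7 were shared under each of 9 alternatives, and Gstk1, Aldh6a1, Egr1 and Tnni1 were among the 10 under all 8 that kept the Euclidean distance.

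Counts of genes moved most with the offset and filter, which change how many dim genes pass. With an offset of 1, genes at least 1.5-fold higher and lower in KO were 141 and 176 under vehicle, and 211 were higher under STZ. With STZ they were 258 and 120 in WT and 144 and 168 in KO, 454 were higher for the difference between effects, and 19 were 2-fold lower in KO under vehicle. With an offset of 16, 1.5-fold higher and lower were 21 and 179 in KO under STZ, 18 and 31 under vehicle, 64 and 14 with STZ in WT, 6 and 16 with STZ in KO, and 35 and 166 for the difference between effects. At 2-fold, 19 and 4 were lower in KO under STZ and vehicle. Under quantile normalization 243 were 1.5-fold lower in KO under STZ, and the cause was not tested. With the filter at percentile 75, 54 were higher in KO under STZ, 38 and 58 higher and lower under vehicle, 33 lower with STZ in WT, 23 and 47 higher and lower with STZ in KO, and 84 and 338 for the difference between effects. Medians that changed sign were the atrophy list in KO under STZ (0.0062 under quantile normalization), the lipid list under vehicle (0.0074 under loess) and the clock list with STZ in WT (-0.024 under quantile normalization and -0.0016 under loess), and the cause was not tested. A further 16 of 80 recomputed list medians kept their sign but moved by over 0.1. Under quantile normalization and loess, KO minus WT under STZ had a median of -0.19 and -0.22 for the amino acid list and -0.35 and -0.38 for the lipid list. Without Car3, added after seeing the data, the adipocyte marker sums were 965 in KO STZ against 1447 in WT STZ, and most of each is Fabp4. Low signal over background limits the dim genes.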
